A study of Mus musculus with 18 samples.

Results

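The 40 genes described here are interferon-stimulated genes and their regulators other than the Ifit, Oasl and Rsad2 genes. They were taken by symbol from the combined count table, where all 40 were found among 56883 gene rows, each with 1 gene identifier. The data are RNA-seq of microglia, astrocyte and neuron fractions of mouse frontal cortex. Mice received 1 intraperitoneal injection a day of vehicle or of an antipsychotic, which was clozapine (10 mg/kg) in 1 group and risperidone (1 mg/kg) in another. Injections ran for 14 days, from postnatal day 60 to 74, and tissue was taken at day 75. The strain of all groups, vehicle included, was B6;D2-Tg(S100B-EGFP)1Wjt/J, in which the S100B promoter drives a green fluorescent protein. Cortices of 5 animals were pooled, with 2 pools per treatment that the labels call batch 1 and batch 2. The CD45, HepaCAM and Thy1 antibodies captured the 3 fractions in turn from each pool, which gave 18 libraries in 9 groups of n = 2. One label gives adult males and another gives both sexes, so the sex of the pools is uncertain.

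Type I interferons bind a receptor made of IFNAR1 and IFNAR2, whose kinases TYK2 and JAK1 phosphorylate transcription factors, STAT2 among them. STAT2 and IRF9 are part of a complex that binds the interferon-stimulated response element, a DNA motif in the promoters of many of these genes. The products detect viral nucleic acid, block viral entry and translation, attach the ubiquitin-like protein ISG15 to other proteins, and amplify or end the signal. In brain, microglia are known for a tonic interferon programme and for a strong response to interferon.

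The libraries held between 4714468 and 13391163 assigned counts, which set the counting precision of the less abundant genes. Levels are given as CPM, a count scaled to sequencing depth, here over the TMM-scaled library size. Of 20 microglia markers listed, 19 were found, and they summed to between 6047 and 12657 CPM in the microglia fraction, 588 and 1529 in the astrocyte fraction, and 167 and 1894 in the neuron fraction. Astrocyte markers were highest in the astrocyte fraction (13004 to 27685 CPM) and neuron markers in the neuron fraction (14793 to 30722 CPM). The astrocyte fraction also held oligodendrocyte markers at 8675 to 45147 CPM and the neuron fraction at 8477 to 39493 CPM. The microglia fraction held neuron markers at 3222 to 11189 CPM. These exceeded its microglia markers in batch 2 with vehicle (8500 against 6047) and with clozapine (11189 against 8188). The lists hold different genes, so their sums do not measure shares of cells or of RNA. The microglia fraction also held border macrophage markers at 114 to 559 CPM and erythrocyte genes at 275 to 2769 CPM. None of the fractions was thus pure. Fewer cells of a type and less RNA per cell cannot be told apart in these bulk libraries. Reads were counted without a strand setting and with overlaps allowed. Counts of 17 members that overlap another gene are therefore uncertain, among them Irf7 (791 counts in all libraries against 10741 of the overlapping Phrf1), Irf9, Adar, Cxcl10, Parp9 and Dtx3l. Members with close copies in the genome (the Gbp, Schlafen, Mx and Ifi20x genes, and Ifi27l2a) may share reads too.

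Promoter windows, from 250 bases before to 50 bases after each start site, were found for 29 of the 40 genes in RefSeq (build GRCm38.p6, while the count files use GRCm39). The core of the response element, GAAANNGAAA, was searched on both strands, with overlapping matches allowed. It stood in the windows of 14 of 29 genes (48.3%), against 1079 of 27025 genes with a window (3.99%). The gamma-activated site TTCNNNGAA stood in 6 of 29 (20.7%), against 9.55% of all genes. A match describes the letters in the window and is not evidence of binding. Windows of 5 genes that hold the core are shown 5′ to 3′ on the gene's strand, with the core in capitals. The first 4 genes were called higher in microglia than in both other fractions and the last was called between none. Both patterns also occurred without the core in the window. Ifi35, Dtx3l, Trim25, Slfn2, Lgals3bp and Epsti1 were called like the first 4 genes, and Ifi44, Xaf1 and Herc6 like the last. Isg15 (chr4:156200769-156201068, minus strand) has 3 overlapping cores that begin 78, 72 and 66 bases before the start site.
Isg15: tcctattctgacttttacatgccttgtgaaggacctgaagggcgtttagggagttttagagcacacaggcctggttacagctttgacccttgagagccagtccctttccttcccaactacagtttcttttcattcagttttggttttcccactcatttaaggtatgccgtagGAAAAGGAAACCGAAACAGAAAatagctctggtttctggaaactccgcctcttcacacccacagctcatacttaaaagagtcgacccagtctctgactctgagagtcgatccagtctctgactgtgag
Ifi207 (chr1:173741760-173742059, minus strand) has 1 core that begins 41 bases before the start.
Ifi207: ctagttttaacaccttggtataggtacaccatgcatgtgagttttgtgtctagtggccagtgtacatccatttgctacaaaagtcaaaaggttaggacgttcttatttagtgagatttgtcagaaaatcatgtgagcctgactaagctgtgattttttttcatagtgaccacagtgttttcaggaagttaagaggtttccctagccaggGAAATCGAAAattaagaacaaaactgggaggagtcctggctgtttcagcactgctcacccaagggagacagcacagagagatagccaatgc
Cxcl10 (chr5:92348840-92349139, minus strand) has 1 core, 213 bases before the start.
Cxcl10: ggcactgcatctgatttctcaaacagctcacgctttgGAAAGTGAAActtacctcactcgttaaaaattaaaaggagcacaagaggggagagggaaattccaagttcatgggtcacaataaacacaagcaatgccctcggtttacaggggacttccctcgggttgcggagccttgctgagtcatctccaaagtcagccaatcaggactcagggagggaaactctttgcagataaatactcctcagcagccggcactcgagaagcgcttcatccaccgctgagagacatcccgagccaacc
Gbp2 (chr3:142620413-142620712, plus strand) has 1 core, 59 bases before the start and on the other strand.
Gbp2: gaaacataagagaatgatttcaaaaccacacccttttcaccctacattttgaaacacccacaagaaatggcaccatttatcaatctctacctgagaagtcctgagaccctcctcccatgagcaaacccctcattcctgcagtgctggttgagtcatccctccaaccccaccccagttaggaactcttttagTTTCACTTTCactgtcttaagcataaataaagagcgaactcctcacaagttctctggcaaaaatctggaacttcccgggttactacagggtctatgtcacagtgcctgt
Stat2 (chr10:128270248-128270547, plus strand), whose product is a subunit of the factor that binds this motif, has 1 core, 222 bases before the start and on the other strand.
Stat2: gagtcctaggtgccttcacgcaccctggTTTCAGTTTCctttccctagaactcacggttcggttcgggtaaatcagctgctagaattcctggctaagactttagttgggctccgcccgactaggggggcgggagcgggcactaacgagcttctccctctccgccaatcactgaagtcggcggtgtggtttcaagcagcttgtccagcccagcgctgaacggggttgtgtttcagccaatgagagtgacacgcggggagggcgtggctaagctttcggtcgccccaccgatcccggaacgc

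All 40 genes had counts in every library of the microglia and astrocyte fractions. In the neuron fraction 5 libraries each had 1 member at 0 counts. Per kb of exon, Cxcl10, a chemokine that attracts T cells, had the highest level in the microglia fraction, at 108 CPM per kb (SD 53.6, n = 6 libraries). It was followed by Ly6e, a membrane protein that restricts viral entry, at 49.8 (SD 10.6), Isg15 at 38.8 (SD 25.7) and Ifi207, a nuclear DNA-binding protein of the AIM2-like family, at 34.9 CPM per kb (SD 15.6). The spreads of these neighbours overlap. In the astrocyte fraction Ifitm3, a membrane protein that blocks virus fusion, stood highest at 16.2 CPM per kb (SD 6.49), close to Ly6e at 14.9 (SD 2.21) and Adar at 12.0 (SD 3.18). In the neuron fraction Ly6e (29.6 CPM per kb, SD 10.0) and Adar (27.8, SD 8.86) led. Adar encodes an enzyme that edits adenosine to inosine in double-stranded RNA. Ifi44 was the lowest member in all 3 fractions, at 0.387, 0.252 and 0.128 CPM per kb.

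**Figure D1:**
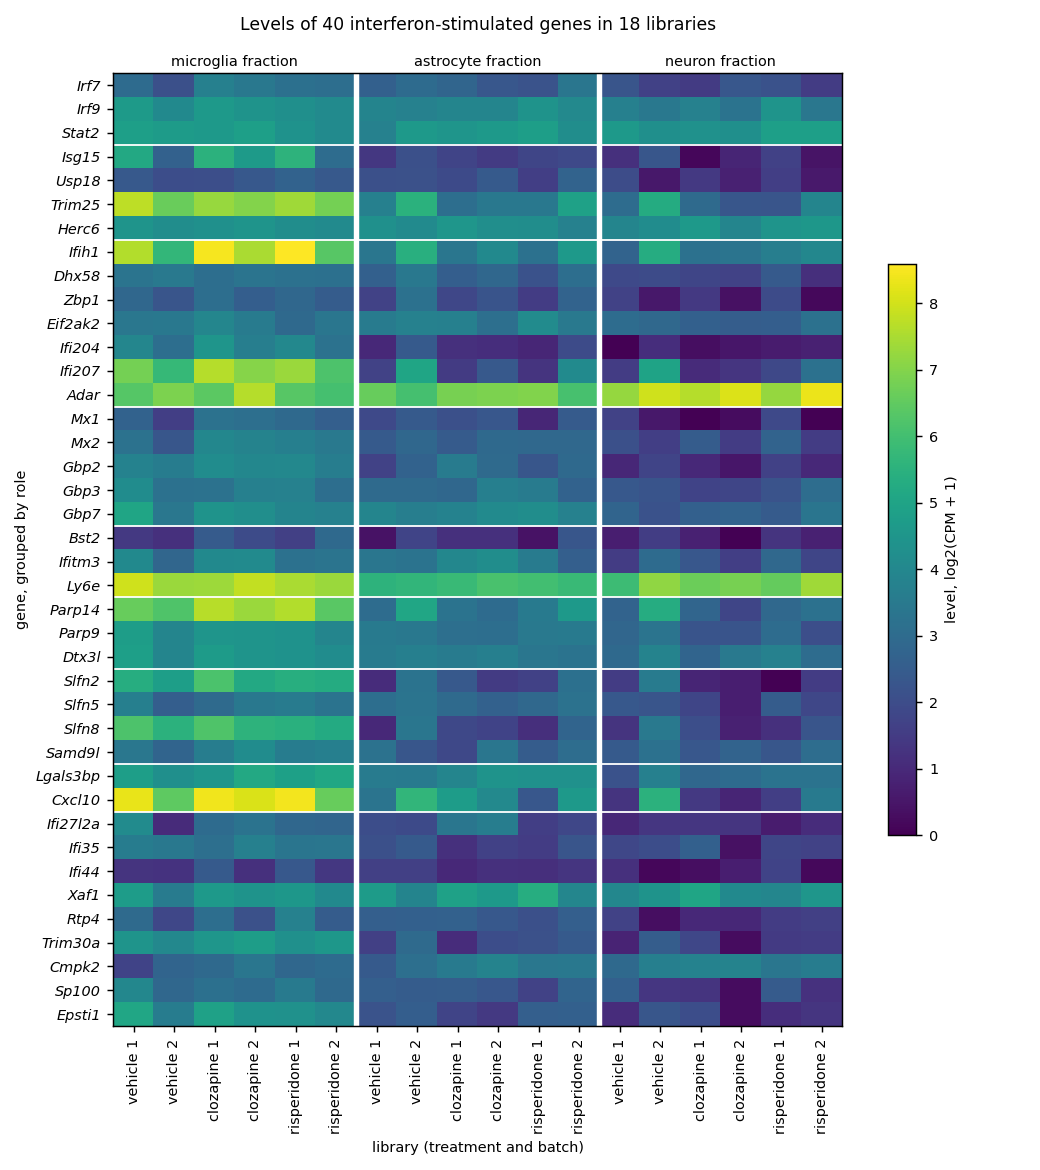
Level of each of the 40 genes (rows, grouped by role) in each of the 18 libraries (columns, labelled by treatment and batch), as log2(CPM + 1) on a colour scale. Ifih1, Ifi207, Cxcl10, Parp14 and Trim25 are brighter in the 6 microglia libraries than elsewhere, and among astrocyte and neuron libraries they are brightest in the vehicle library of batch 2.

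The first comparison asked which of these genes separate the fractions, with 6 libraries each and all treatments in 1 edgeR fit. Against the astrocyte fraction, 17 of 40 members were called higher in microglia at adjusted p under 0.05 and 0 lower, where 13% of all 37273 genes tested were called in either direction. The median log2 difference of the members was 0.84, against 0.02 over all genes. Against the neuron fraction, 34 members were higher and 2 lower, where 47.1% of all genes were called, and the median was 1.82 against 0.62. With the pool as a block the counts were again 17 (11.8% of genes) and 36 (38.8% of genes). All 17 members called against astrocytes were also called higher against neurons. Another 17 were called higher against neurons alone, and 2 (Adar and Cmpk2) were called lower against neurons alone. The remaining 4 (Stat2, Ifi44, Xaf1 and Herc6) were called against neither fraction. A list of 20 dissociation response genes also set the microglia fraction apart, while the astrocyte and neuron fractions overlapped. The list summed to 7908 to 16689 CPM in microglia, 1439 to 3557 in astrocytes and 1164 to 4097 in neurons. The part of this response in the differences of the members was not tested.

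Among the nucleic acid sensors, Ifih1, which encodes the RNA sensor MDA5, stood at 192 and 51.0 CPM in the vehicle microglia libraries of batch 1 and 2, 355 and 182 with clozapine, and 385 and 80.7 with risperidone. In the same order Ifih1 lay at 9.37 and 41.7, 9.43 and 15.8, and 8.20 and 23.9 CPM in the astrocyte fraction. Every microglia library was above every astrocyte library, by the least in the vehicle pool of batch 2. The log2 difference was 3.51 (SE 0.49, edgeR adjusted p = 2.34e-05), and 3.85 (SE 0.50) against neurons. Ifi207 differed by 3.88 (SE 0.61) from astrocytes and 4.55 (SE 0.64) from neurons, and Ifi204, a DNA sensor of the same family, by 2.80 (SE 0.46) and 4.57 (SE 0.53). Dhx58, an RNA helicase related to MDA5, Zbp1, a sensor of Z-form nucleic acid, and Eif2ak2, the kinase that halts translation on double-stranded RNA, were called only against neurons (log2 differences 1.71, 2.14 and 0.70). Adar went the other way, with 148 to 324 CPM in neurons and 65.8 to 197 in microglia, and was lower in microglia by 1.16 (log2 difference -1.16, SE 0.29). Adar overlaps Chrnb2, an acetylcholine receptor subunit gene on the opposite strand, which itself lay at 63.9 to 127 CPM in neurons and 29.1 to 62.1 in microglia, and its share in the Adar counts was not tested.

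In the ISG15 system, Isg15 itself lay between 5.40 and 45.8 CPM in microglia, between 1.62 and 3.25 in astrocytes, and between 0.122 and 3.97 in neurons. Every microglia library was above every library of the other fractions, which overlap each other. Isg15 was higher in microglia by 3.48 (SE 0.50) and 4.46 (SE 0.54) than in astrocytes and neurons. Trim25, a ubiquitin and ISG15 ligase that activates RIG-I, was higher by 3.09 (SE 0.42) and 3.80 (SE 0.43). Usp18, the protease that removes ISG15 and dampens the receptor, was called only against neurons (1.54, SE 0.49), and Herc6, the mouse ISG15 ligase, differed by 0.10 (SE 0.20) and 0.02 (SE 0.20), called in neither. Of the transcription factors, Stat2 differed by 0.14 (SE 0.20) and 0.05 (SE 0.20) and was not called. Irf7, the factor that amplifies interferon production, and Irf9 were called against neurons alone, at 1.42 (SE 0.35) and 0.69 (SE 0.23).

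All 3 members of the PARP and ubiquitin ligase group were called higher in microglia against both fractions. Parp14, a mono-ADP-ribosyl transferase, lay between 74.7 and 201 CPM in microglia and between 7.08 and 33.1 in astrocytes, a difference of 3.20 (SE 0.41). Parp9 and its partner Dtx3l, whose genes overlap, differed by 1.05 (SE 0.24) and 0.95 (SE 0.25). Among the Schlafen genes, which act on transfer RNA and lymphocyte quiescence, Slfn8 differed by 3.87 (SE 0.48) and Slfn2 by 3.30 (SE 0.48) from astrocytes. Slfn5 and Samd9l, a brake on translation and growth, were called only against neurons. All 5 GTPases (Mx1, Mx2, Gbp2, Gbp3 and Gbp7), which trap viral particles or attack vacuoles, were called against neurons, with Gbp2 at 3.46 (SE 0.36). Of these 5 genes, Gbp2 alone was called against astrocytes (1.27, SE 0.32).

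Both secreted members were called in both comparisons. Cxcl10 lay between 87.1 and 348 CPM in microglia, 4.05 and 49.7 in astrocytes, and 0.846 and 45.1 in neurons. The astrocyte and neuron maxima were both in the vehicle pool of batch 2. Cxcl10 was higher in microglia by 3.56 (SE 0.62) and 5.38 (SE 0.69), and Lgals3bp, a secreted galectin ligand, by 0.83 (SE 0.25) and 1.81 (SE 0.26). Of the membrane proteins Ly6e was called against both (1.74 and 0.75), while Ifitm3 (0.13, SE 0.33, against astrocytes) and Bst2, the tether that holds budding virus at the cell surface (0.89, SE 0.66), were called against neurons alone. Among the other effectors, Epsti1 (2.57, SE 0.40) and Trim30a (2.63, SE 0.42), which restrains NF-kappaB signalling, led the comparison with astrocytes. Cmpk2, a mitochondrial nucleotide kinase, was lower in microglia than in neurons (log2 difference -0.84, SE 0.27). Xaf1, a promoter of apoptosis, differed by -0.29 (SE 0.28) from astrocytes and -0.01 (SE 0.28) from neurons.

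**Figure D2:**
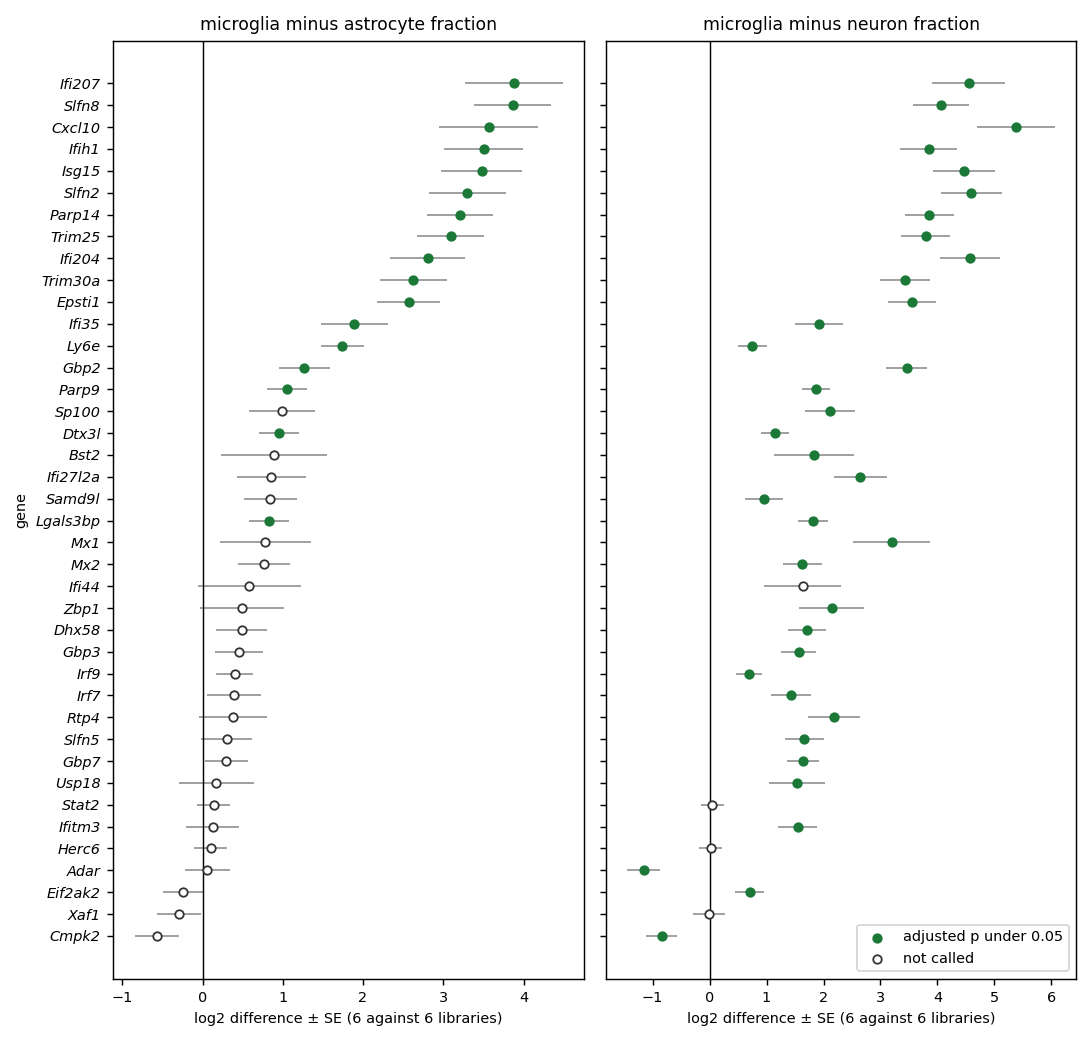
Log2 difference (x axis, bar: SE) of each of the 40 genes between the microglia and astrocyte fractions (left) and the microglia and neuron fractions (right), 6 libraries a fraction, sorted by the left panel, with filled points called by edgeR at adjusted p under 0.05. On the left 17 points are filled, all right of 0, and on the right 36, of which Adar and Cmpk2 lie left of 0.

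Between the astrocyte and neuron fractions 17 members were called higher in astrocytes and 2 lower, where 23.7% of all genes were called. The members' median log2 difference was 0.96, against 0.46 over all genes. With the pool as a block 16 were called, where 15% of genes were, and without risperidone astrocyte library 2 the count was 12 (9.66% of genes). Gbp2 (2.19, SE 0.36), Gbp7 (1.34, SE 0.28), Ifitm3 (1.42, SE 0.34), Slfn5 (1.36, SE 0.34), Lgals3bp (0.98, SE 0.26) and Eif2ak2 (0.95, SE 0.25) were among the members higher in astrocytes. Rtp4, a chaperone of receptors at the membrane, was higher by 1.81 (SE 0.46), and Ifi27l2a, a small mitochondrial protein, by 1.79 (SE 0.47). Adar (-1.22, SE 0.29) and Ly6e (-0.99, SE 0.26) were lower in astrocytes. In the vehicle libraries alone (n = 2 against 2), 5 members were called between microglia and astrocytes (Epsti1, Isg15, Ly6e, Slfn2 and Slfn8), where 2.43% of genes were. Between microglia and neurons 8 were called (6.08% of genes), and between astrocytes and neurons 0 (0.00337% of genes).

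The second comparison asked whether clozapine changed these genes in the microglia fraction (2 against 2 libraries). edgeR called 0 of 40 members, and 0% of the 32812 genes tested; with the batch as a block it called 0 members and 0.0152% of genes, and DESeq2 called 0 members and 1 gene. At an unadjusted p under 0.05, edgeR found 6 members, all higher with clozapine, and 1038 genes (3.16%). The members' median was 0.29, against -0.02 over all genes. It was 0.00 within batch 1, where 20 of 40 members were higher, and 0.57 within batch 2, where 37 were. Without vehicle library 1 it was 0.64, and without vehicle library 2 it was -0.05. Both clozapine libraries were above both vehicle libraries in 12 of 40 members (16.6% of all genes tested) and below both in 1, Dhx58 (13.4% of all genes). Vehicle library 2 held the lowest of the 6 microglia values in 29 of the 40 members, and vehicle library 1 the highest in 13.

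The vehicle libraries held 8.45 and 3.91 CPM of Mx2, a GTPase related to the influenza resistance factor Mx1, while those of clozapine held 14.7 and 13.3 and those of risperidone 12.2 and 10.2. These vehicle values were the lowest of the 6. The log2 difference for clozapine was 1.14 (SE 0.41, edgeR unadjusted p = 0.017, adjusted p = 1.00). The level of Irf7 was 7.02 and 3.28 CPM under vehicle, 12.4 and 9.84 under clozapine, and 8.09 and 7.65 under risperidone, a difference of 1.07 (SE 0.43) for clozapine. Here too the vehicle libraries were lowest. Parp14 went from 96.2 and 74.7 CPM under vehicle to 201 and 156 under clozapine (1.01, SE 0.40), with near-equal differences in the batches (1.02 and 0.99). Mx1 (1.08, SE 0.49), Samd9l (0.87, SE 0.39) and Ifi207 (0.96, SE 0.43) were the other members under an unadjusted p of 0.05, each higher in both batches.

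Levels of Isg15 were 35.4 and 5.40 CPM under vehicle and 45.5 and 24.4 under clozapine, so the groups overlap. Its difference was 0.74 (SE 0.79), or 0.31 within batch 1 and 2.06 within batch 2. Cxcl10 behaved alike, at 317 and 87.1 against 342 and 273 CPM (0.56, SE 0.59, or 0.06 and 1.57 by batch). For Ifih1 the fit without a block gave 1.10 (SE 0.67), and the fit with the batch as a block 1.35 (SE 0.27, edgeR unadjusted p = 4.5e-05, adjusted p = 0.163), which was not called. Ifi27l2a turned with the batch, at -1.28 in batch 1 and 2.70 in batch 2, since its vehicle libraries held 16.9 and 1.06 CPM. Bst2 differed by 1.25 (SE 0.65) on 12 to 36 counts a library with vehicle and clozapine. Usp18 (-0.06, SE 0.48), Irf9 (0.05, SE 0.33), Stat2 (-0.08, SE 0.31), Zbp1 (0.28, SE 0.45) and Ifitm3 (0.52, SE 0.42) were not called. Vehicle library 1 stood apart in other genes too, with microglia markers at 12657 CPM (6047 to 8814 in the other 5). Its border macrophage markers were at 559 (114 to 249) and its dissociation response genes at 16689 (7908 to 12231). Vehicle library 2 had the lowest microglia (6047 CPM) and border macrophage markers (114) of the 6. Its neuron markers were at 8500, in a range of 3222 to 11189 over the 6. The part of these lists in the drug differences was not tested.

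**Figure D3:**
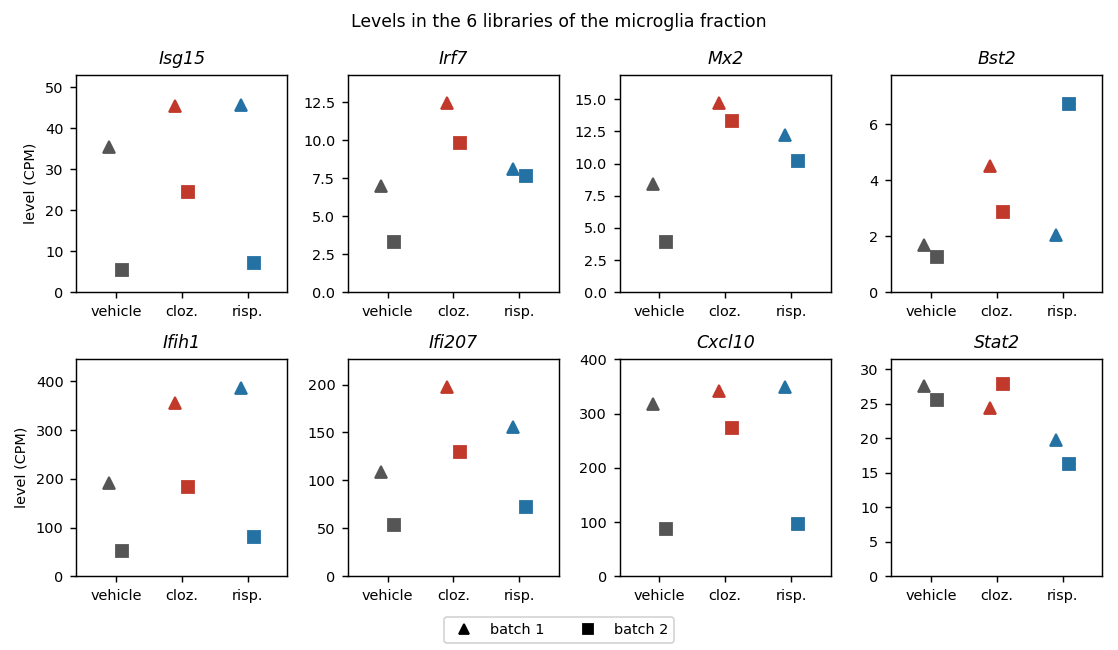
CPM (y axis, from 0) of 8 genes in the 6 libraries of the microglia fraction by treatment (x axis), with triangles for batch 1 and squares for batch 2. Isg15, Ifih1, Ifi207 and Cxcl10 are higher in batch 1 than in batch 2 at each treatment, whereas for Mx2 and Irf7 both vehicle points lie below the 4 drug points.

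Risperidone was compared with the same vehicle libraries, so the 2 drug comparisons share their controls. edgeR called 0 of 40 members (0% of genes, also with the batch as a block), DESeq2 0, and 2 members and 1408 genes (4.29%) had an unadjusted p under 0.05. The members' median was 0.17 (0.04 within batch 1 and 0.29 within batch 2), against 0.02 over all genes, and it was 0.50 without vehicle library 1 and -0.18 without vehicle library 2. Both risperidone libraries were above both vehicle libraries in 7 members (19.2% of genes) and below in 6 (18.6% of genes). For Bst2 the vehicle libraries held 1.69 and 1.27 CPM and the risperidone libraries 2.06 and 6.72, a difference of 1.64 (SE 0.65), most of it in batch 2. Mx2 differed by 0.93 (SE 0.41), Parp14 by 0.77 (SE 0.39), Irf7 by 0.68 (SE 0.43) and Samd9l by 0.68 (SE 0.39). Stat2 differed by -0.50 (SE 0.31), and both of its risperidone libraries were below both vehicle libraries. Isg15 (0.46, SE 0.80), Usp18 (0.46, SE 0.47), Irf9 (-0.17, SE 0.34), Zbp1 (0.19, SE 0.45), Cxcl10 (0.22, SE 0.59), Ifitm3 (-0.27, SE 0.43) and Ifi27l2a (-0.46, SE 0.79) were not called.

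Between the drugs, edgeR called 0 of 40 members in microglia (0% of genes, and 0 members and 0.0061% of genes with the batch as a block), DESeq2 0 members, and 0 members and 2424 genes had an unadjusted p under 0.05. The median was 0.19, against -0.04 over all genes. The smallest p belonged to Adar (0.84, SE 0.41), at 85.3 and 197 CPM with clozapine and 80.8 and 65.8 with risperidone, where 1 clozapine library carried the difference. Ifitm3 differed by 0.80 (SE 0.43), nearly alike in both batches (0.80 and 0.77), and was not called. By p, Eif2ak2, Stat2 and Slfn8 came next, and their values are not given here. Isg15 (0.28, SE 0.79), Irf7 (0.38, SE 0.42), Mx2 (0.21, SE 0.40), Bst2 (-0.39, SE 0.61) and Cxcl10 (0.35, SE 0.59) differed by less than their SE. Usp18 (-0.53, SE 0.47) differed by slightly more than its SE. With 2 libraries a group, such values do not show that the drugs act alike.

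**Figure D4:**
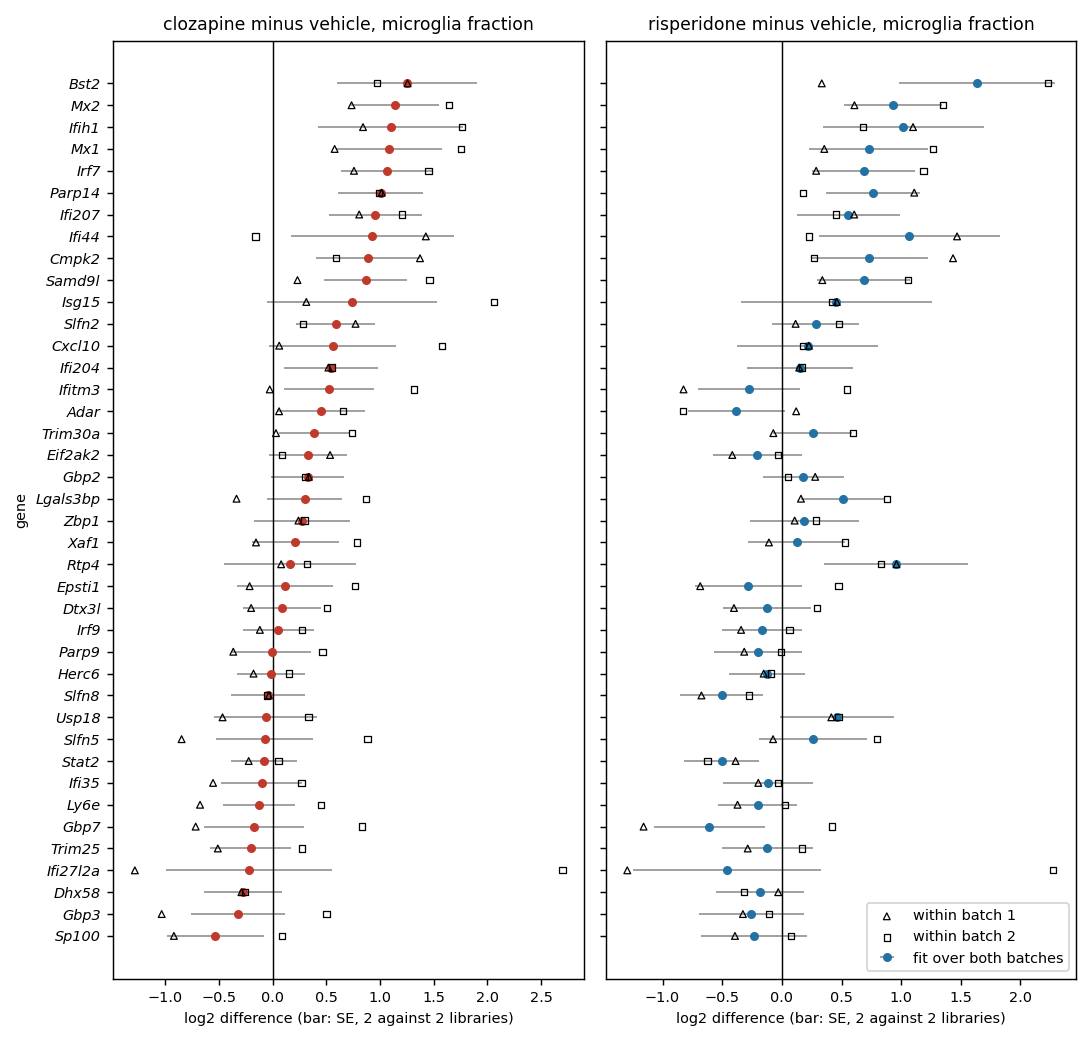
Log2 difference from vehicle of each of the 40 genes in the microglia fraction for clozapine (left) and risperidone (right), as fitted over both batches (filled points, bar: SE, 2 against 2 libraries) and within each batch (open symbols), sorted by the left panel. None of these values was called, and in the left panel most squares (batch 2) lie right of the triangles (batch 1).

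In the astrocyte fraction edgeR called 0 of 40 members for either drug or between drugs (0% of 30990 genes each). With the batch as a block it called 0 members and 0.0129%, 0.0129% and 0.0484% of genes, and DESeq2 called 0 members. For clozapine 4 members and 389 genes had an unadjusted p under 0.05, for risperidone 1 and 200, and between drugs 1 and 330. The members' median was -0.15 for clozapine and -0.08 for risperidone, against -0.04 and -0.01 over all genes. Without vehicle library 2 these medians were 0.22 and 0.34. Both clozapine libraries were above vehicle in 8 members (15.2% of genes) and below in 6 (17.1% of genes). For risperidone the counts were 6 (8.12% of genes) and 3 (10.2% of genes). The astrocyte level of Ifi27l2a was 3.07 and 2.83 CPM under vehicle, 9.43 and 11.6 under clozapine, and 2.02 and 2.59 under risperidone. Both clozapine libraries were above the other 4, in both batches alike. The difference was 1.81 (SE 0.55, edgeR unadjusted p = 0.0068, adjusted p = 1.00) from vehicle and 2.15 (SE 0.55) from risperidone, and neither was called. Trim25 (-1.72, SE 0.63), Parp14 (-1.41, SE 0.63) and Ifi207 (-2.51, SE 1.14) were lower with clozapine by an unadjusted p under 0.05, mainly within batch 2, where the vehicle library held 1529 CPM of microglia markers against 588 with clozapine. The part of those cells in the difference was not tested. Lgals3bp differed by 0.84 (SE 0.36) with risperidone, and by 0.82 and 0.84 in the batches.

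In the neuron fraction 39 members passed the filter on low counts. edgeR called 0 of them for either drug or between drugs (0% of 25481 genes each). With the batch as a block it called 0 members and 0.00392%, 0.00392% and 0% of genes. DESeq2 called 1 member for clozapine, Cxcl10 (adjusted p = 0.0491), among 20 genes (0.102% of those given an adjusted p), and 0 for risperidone and between drugs. For clozapine 5 members and 715 genes had an unadjusted p under 0.05, for risperidone 2 and 204, and between drugs 0 and 827. The members' median was -0.56 for clozapine (-0.11 in batch 1 and -0.60 in batch 2) and -0.10 for risperidone, against -0.03 and 0.00 over all genes. Both clozapine libraries were below vehicle in 11 of 39 members (14.7% of genes) and above in 1 (13.9% of genes), and the counts for risperidone were 2 (9.25% of genes) and 2 (7.93% of genes). Without vehicle library 1, which leaves the vehicle library of batch 2 alone in its group, edgeR called 5 members for clozapine (0.934% of genes), 4 for risperidone (0.507% of genes) and 1 between drugs (0.194% of genes).

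In the neuron fraction Cxcl10 lay at 1.43 and 45.1 CPM under vehicle, 1.71 and 0.846 under clozapine, and 2.04 and 10.6 under risperidone. A single library, vehicle of batch 2, was far above the rest. The edgeR difference for clozapine was -4.18 (SE 1.21, unadjusted p = 0.0051, adjusted p = 1.00), or 0.18 within batch 1 and -5.38 within batch 2. Ifi207 (-3.66, SE 1.01), Parp14 (-2.41, SE 0.74), Trim25 (-2.08, SE 0.73) and Slfn2 (-3.10, SE 1.25) had the same high library, which held 1894 CPM of microglia markers, against 167 to 600 in the other 5 neuron libraries. The part of microglial RNA in these differences was not tested. Without that library the members' median for clozapine was -0.29, and the difference of Cxcl10 for risperidone went from -1.92 to 2.01.

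Whether the drug differences themselves differed between fractions was tested with an interaction term over all 18 libraries. edgeR called 0 of 40 members in the 4 interactions (clozapine and risperidone, microglia against astrocytes and against neurons), 0% of 37273 genes each, also with the pool as a block. DESeq2 called 0 members. At an unadjusted p under 0.05 there were 2 and 7 members for clozapine against astrocytes and neurons (362 and 1481 genes), and 0 and 2 for risperidone (483 and 648 genes). The smallest p belonged to Parp14, whose clozapine difference was higher in microglia than in neurons by 3.49 (SE 0.97, edgeR unadjusted p = 0.0015, adjusted p = 1.00). Ifi207 (4.67, SE 1.46), Cxcl10 (4.80, SE 1.53), Slfn2 (3.76, SE 1.21) and Mx1 (4.51, SE 1.71) followed. Mx1 had 0 counts in 2 of the neuron libraries. The members' median for this contrast was 0.99, against 0.19 over all genes. It was 0.08 within batch 1, where 21 of 40 members were higher, and 1.77 within batch 2, where 37 were. Without neuron vehicle library 2 the median was 0.50.

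The 2 pools of each treatment carry different batch labels, and same-numbered libraries deviated together (correlations of 0.23 to 0.71 over genes), so the batches were compared with treatment as a term. In the microglia fraction 5 of 40 members were higher in batch 1 and 0 lower, where 4.25% of genes were called. Isg15 was higher by 2.01 (SE 0.30, edgeR adjusted p = 1.5e-04), Ifih1 by 1.68 (SE 0.22), Cxcl10 by 1.32 (SE 0.24), Rtp4 by 1.32 (SE 0.34) and Ifi207 by 0.89 (SE 0.19). Each was higher in batch 1 at all 3 treatments, as for Isg15 by 2.60 with vehicle, 0.86 with clozapine and 2.64 with risperidone. DESeq2 also called 5 members (among 1724 genes), with Trim25 in place of Cxcl10. Rtp4 was no longer called whichever library was left out. The members' median was 0.45, against 0.05 over all genes, and 0.14 without vehicle library 1. Erythrocyte genes summed to 2769, 1719 and 1306 CPM in batch 1 with vehicle, clozapine and risperidone, and to 428, 809 and 275 in batch 2. Dissociation response genes summed to 16689, 12002 and 12231 CPM against 8749, 9838 and 7908. Of 10 marker lists, 6 were higher in batch 1 at each treatment and 1 lower. Microglia markers summed to 12657, 8814 and 7710 CPM in batch 1 and to 6047, 8188 and 6973 in batch 2, border macrophage markers to 559, 249 and 184 against 114, 168 and 140, and astrocyte markers to 3386, 5905 and 4629 against 2655, 3332 and 1861. Oligodendrocyte markers went the same way (1514, 3532 and 2334 against 1447, 1433 and 758 CPM), and neuron markers the other (4775, 4532 and 3222 against 8500, 11189 and 5032 CPM). The part of these lists in the difference was not tested.

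In the astrocyte fraction the batches differed in the other direction, with 5 of 40 members lower in batch 1 and 0 higher, where 5.71% of genes were called. These were Ifi207 (-2.96, SE 0.41, edgeR adjusted p = 6.4e-06), Ifih1 (-1.51, SE 0.29), Cxcl10 (-1.44, SE 0.39), Trim25 (-1.31, SE 0.29) and Parp14 (-1.06, SE 0.33). Ifi207 stood at 2.26, 1.83 and 1.46 CPM in batch 1 with vehicle, clozapine and risperidone and at 32.2, 4.29 and 16.3 in batch 2, with no overlap. Without vehicle library 2 the count was 0 (0.524% of genes), and without vehicle library 1 it was 1, Ifi207 (0.314% of genes). Without clozapine library 1 or 2 it was 10 (13.4% and 14.9% of genes), and without either risperidone library 2 (1.35% of genes each). DESeq2 called 3 (8.44% of genes given an adjusted p). In the neuron fraction edgeR called 0 of 39 members (0.334% of genes), 9 had an unadjusted p under 0.05, as did 6293 genes, and DESeq2 called 2, Adar and Ifi207 (5.59% of genes given an adjusted p). Without clozapine library 1 or 2 edgeR called 9 (14.2% and 14.4% of genes). Ifi207 there differed by -2.02 (SE 0.59), with batch 1 at 1.90, 1.10 and 2.62 CPM for vehicle, clozapine and risperidone, and batch 2 at 30.9, 1.48 and 8.16. Each of the 5 members called in astrocytes was highest in vehicle library 2, which also held the most microglia markers (1529 CPM, against 588 to 1250 in the other 5). Microglia markers did not follow the batch at every treatment (608, 1030 and 1060 CPM in batch 1 with vehicle, clozapine and risperidone, 1529, 588 and 1250 in batch 2). Lists that were lower in batch 1 at each treatment were dissociation response genes (1749, 1667 and 1439 against 3485, 3475 and 3557 CPM), border macrophage markers (41.5, 37.0 and 30.6 against 83.6, 66.1 and 84.1) and blood leukocyte markers (38.8, 30.5 and 20.8 against 65.4, 44.5 and 66.3). Oligodendrocyte markers were higher in batch 1 (33089, 29036 and 45147 against 8675, 13068 and 11107 CPM), as were astrocyte markers (17468, 19699 and 27685 against 13105, 13832 and 13004) and neuron markers (10885, 10652 and 9838 against 3758, 10028 and 3837). The part of these lists and of microglial RNA in the difference was not tested.

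**Figure D5:**
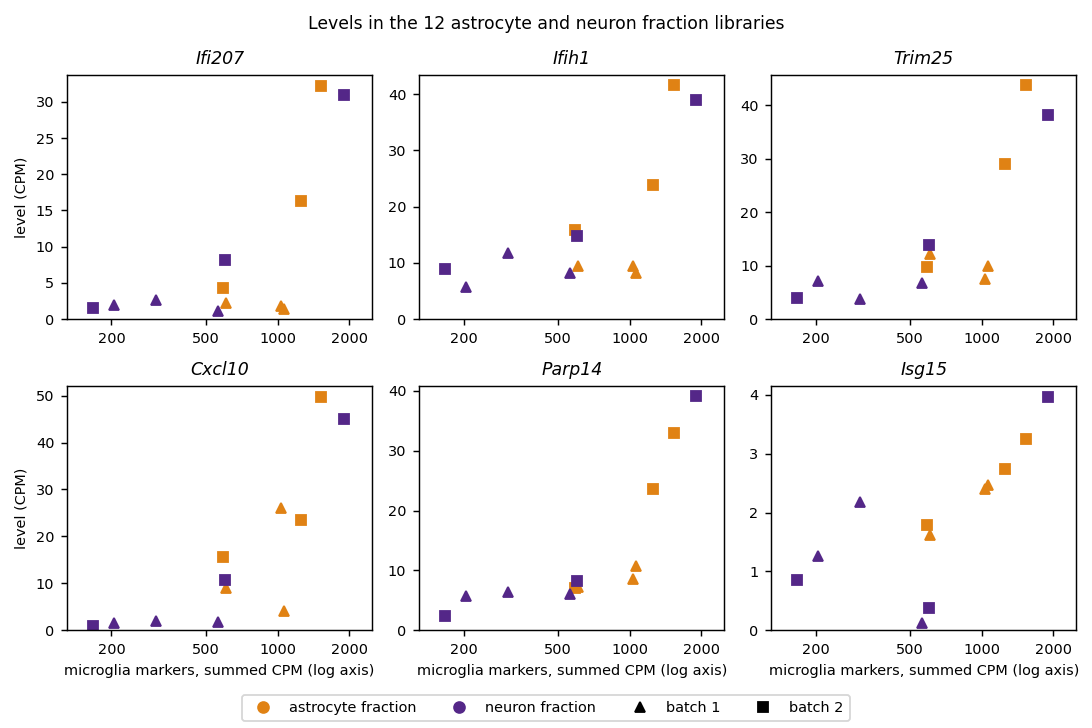
CPM of 6 genes (y axis, from 0) against the summed CPM of 19 microglia markers (x axis, log scale) in the 6 astrocyte (orange) and 6 neuron (purple) libraries, with triangles for batch 1 and squares for batch 2. The highest point of each fraction for Ifi207, Ifih1, Trim25, Cxcl10, Parp14 and Isg15 is the vehicle library of batch 2, which also has the most microglia markers.

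A list of other interferon pathway genes (interferons, receptors, kinases, sensors and negative regulators) had 36 genes in the table. Of 35 tested, 23 were higher in microglia than in astrocytes and 1 lower, where 13% of all genes were called in either direction. Against neurons 29 were higher and 0 lower, where 47.1% of all genes were called. Irf8, a transcription factor of myeloid cells, differed from astrocytes by 3.45 (SE 0.35), Tlr7, a sensor of single-stranded RNA, by 4.04 (SE 0.51), the adaptor Sting1 by 2.57 (SE 0.30), and the receptor chain Ifnar2 by 2.01 (SE 0.25). Between astrocytes and neurons 8 were higher and 1 lower (23.7% of all genes called). None of the pathway genes was called by edgeR for a drug in any fraction. In microglia, Ifnar1 differed by -0.08 (SE 0.29) with clozapine and -0.19 (SE 0.29) with risperidone, Ifnar2 by -0.17 (SE 0.32) and -0.17 (SE 0.32), Jak1 by 0.13 (SE 0.29) and 0.00 (SE 0.29), and Tyk2 by -0.32 (SE 0.32) and 0.03 (SE 0.32). The receptor chains and the kinases thus differed by at most about their SE.

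Between the batches of the microglia fraction 4 of these 35 genes were higher in batch 1 and 0 lower, where 4.25% of all genes were called. Ifnb1, which encodes interferon beta, stood at 72.7, 99.0 and 117 CPM in batch 1 with vehicle, clozapine and risperidone and at 8.78, 57.2 and 17.4 in batch 2. The groups do not overlap, and the difference was 2.14 (SE 0.30, edgeR adjusted p = 1.2e-04). Ube2l6, the enzyme that conjugates ISG15, was higher by 1.83 (SE 0.26), Tlr3 by 0.87 (SE 0.23) and Irf8 by 0.75 (SE 0.20). In the astrocyte fraction 7 of 33 were lower in batch 1 and 0 higher (5.71% of all genes called), among them Socs3 (-1.67, SE 0.26) and Tlr9 (-2.36, SE 0.39). In the neuron fraction 0 of 32 were called (0.334% of all genes).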

How the data were processed

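The authors deposited raw counts of reads per gene, as 1 table per library and 1 combined table by symbol. According to the file headers these come from featureCounts v2.0.8, which took paired reads over exons by gene identifier on GRCm39, with overlaps allowed (-O) and no strand setting. The submitters' processing notes name FastQC. An aligner is not given in the sources here. Both tables gave equal counts for all 40 members. Per the labels' protocols, ribosomal RNA was depleted and RNA came straight from the immunopanned cells.

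The tests used edgeR 4.0.16 in R 4.3.3 (quasi-likelihood test after filterByExpr, TMM scaling) on whole tables, with Benjamini-Hochberg adjustment over all genes tested and a threshold of 0.05. The SE was taken as the size of the log2 difference over the square root of its F statistic. Each fraction was fitted alone (drugs, batches), and all 18 libraries together (fractions, interactions). Within-batch differences are of log2 CPM with a prior count of 2. The labels' batch number pairs the pools, and deviations of same-numbered libraries correlated at 0.228 to 0.706, so fits with batch or pool as a block were made too. Alternatives were DESeq2 1.42.0, RLE scaling, no low-count filter, all libraries in 1 fit, vehicle only, counts by gene identifier, and each library left out. Scripts were tested on simulated data. Pools are the replicates.

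The members, lists, tests and the naming rule were chosen with earlier results of these data known. The rule named, for each comparison, up to 10 called members by smallest p, filled to 5, and in microglia drug comparisons also Isg15, Usp18, Irf7, Irf9, Stat2, Mx2, Bst2, Ifi27l2a, Zbp1, Cxcl10 and Ifitm3. The text does not give the differences of all members that the rule named. Those left out include Eif2ak2, Stat2 and Slfn8 between the drugs in microglia. Also left out are Cmpk2, Cxcl10, Irf9 and Xaf1 for risperidone in astrocytes, and all named members between the drugs in neurons. Other members in the text were named after their values were seen, to complete their role groups.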

Additional observations from a re-analysis of the deposited data

Results flagged for a closer look

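The members' median log2 difference had opposite signs in both batches of 2 fractions, for each drug. For clozapine against vehicle it was 0.0030 in batch 1 and 0.57 in batch 2 of the microglia fraction, and -0.11 and -0.60 in the neuron fraction. For risperidone against vehicle it was 0.038 and 0.29 in the microglia fraction, and -0.00053 and -0.12 in the astrocyte fraction. The difference between these medians was not tested, and edgeR's interaction test called 0 of the 40 genes for each of these contrasts. The value of batch 1 is close to 0 in microglia for both drugs and in astrocytes for risperidone. All batch 2 medians are taken against vehicle library 2, which held the lowest value of 29 members in the microglia fraction and the highest of 18 in the neuron fraction.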

How the results depend on the processing

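With the batch or the pool as a replicate block, the counts of called members were 0 in all 9 drug comparisons and all 4 interactions, 17 between microglia and astrocytes, 36 between microglia and neurons and 16 between astrocytes and neurons, and Ifi27l2a for clozapine in microglia turned to 0.23. Without a filter on low counts, 1 member was called for clozapine in astrocytes (0.0944% of genes), 4 for clozapine in neurons (0.34%), 3 between the batches of the neuron fraction (3.73%), and 1 and 6 in the clozapine interactions of microglia with astrocytes and neurons (0.0251% and 0.309%). DESeq2 called 1 for clozapine in neurons, 3 between the astrocyte batches and 2 between the neuron batches. In vehicle libraries alone, with fewer samples, 5, 8 and 0 members were called between the fractions (2.43%, 6.08% and 0.00337% of genes). The cause of the other changes was not tested. RLE scaling moved the median of all genes by 0.19 between microglia and neurons, by 0.12 between astrocytes and neurons, and by 0.13 and 0.11 in the risperidone interactions; called members then numbered 36 and 20 between these fractions and 0 in these interactions.

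With each library left out in turn, and a lone library assumed to vary like the other groups, the count of called members ranged from 15 to 18 between microglia and astrocytes, 32 to 37 between microglia and neurons, 12 to 23 between astrocytes and neurons, 4 to 7, 0 to 10 and 0 to 9 between the batches of microglia, astrocytes and neurons, and 0 to 5, 0 to 4 and 0 to 1 for clozapine, risperidone and between drugs in neurons. It was 0 throughout in the other drug comparisons and the interactions. These fits carry no batch term in the drug comparisons. Lowest and highest log2 differences follow for genes that changed sign. For clozapine against vehicle in microglia the range was for Usp18 from -0.29 to 0.15, Ifi27l2a from -1.13 to 2.77, Isg15 from -0.044 to 2.59, Irf9 from -0.20 to 0.36, Zbp1 from -0.046 to 0.63, Cxcl10 from -0.066 to 1.72 and Stat2 from -0.19 to 0.025. For risperidone against vehicle in microglia it was for Irf9 from -0.44 to 0.10, Ifi27l2a from -1.39 to 2.50, Ifitm3 from -0.80 to 0.47, Isg15 from -1.44 to 2.23, Zbp1 from -0.12 to 0.50 and Cxcl10 from -1.01 to 1.31. For clozapine against risperidone in microglia it was for Isg15 from -0.50 to 2.18, Zbp1 from -0.19 to 0.40, Bst2 from -0.96 to 0.72 and Cxcl10 from -0.29 to 1.57. For clozapine against vehicle in astrocytes it was for Parp14 from -2.08 to 0.10 and Ifi207 from -3.37 to 0.45. For risperidone against vehicle in astrocytes it was for Cxcl10 from -2.84 to 0.61 and Xaf1 from -0.43 to 1.06. For risperidone against vehicle in neurons it was for Parp14 from -2.41 to 0.28, Trim25 from -2.51 to 0.20, Ifi207 from -2.56 to 1.38 and Cxcl10 from -3.42 to 2.01. In the interactions, the clozapine term of Ifi27l2a between microglia and astrocytes ranged from -2.98 to 0.90. The risperidone term of Gbp7 between microglia and astrocytes ranged from -1.54 to 0.13. That of Ifi207 between microglia and neurons ranged from -0.998 to 3.24. In the neuron fraction, counts were low for Mx1, Bst2, Ifi44, Ifi204 and Isg15, among others. Usp18, Ifi27l2a, Rtp4, Zbp1 and Gbp2 had at most 20 counts in any neuron library.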
